A study of Mus musculus with 14 samples.

Results

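Inward rectifier, tandem pore, calcium-activated and sodium-activated potassium channels were described in adult mouse spinal cord. The members were the 38 genes, of 19215 in the gene tables of both RNA-seq libraries, whose symbols begin with Kcnj, Kcnk, Kcnn, Kcnma, Kcnmb or Kcnt. There were 15 Kcnj, 13 Kcnk, 4 Kcnn, 4 Kcnma or Kcnmb and 2 Kcnt genes. The 21 cassette exons of these genes, of 13189 exons in the exon tables, were included and belonged to 12 genes. The Kcnt channels are gated by sodium rather than calcium, so the members are named here by family. Gene levels were measured by whole spinal cord (WSC) RNA-seq, in 2 libraries, a male and a female Tg(SOD1)2Gur/J mouse giving 1 each, which carry a SOD1 WT transgene (B6/SJL, 12 weeks of age). Binding was measured by HITS-CLIP, in which RNA crosslinked to a protein by UV light is immunoprecipitated with it and sequenced. The protein was NOVA, a neuronal RNA binding protein that regulates splicing. Motoneuron (MN) CLIP was made with anti-GFP antibodies 19C8 and 19F7 from pooled spinal cords of Chat:GFP-Nova #6 hemizygous and Chat:GFP-Nova #17 hemizygous mice, with 4 libraries per line. Both lines express AcGFP-tagged NOVA2 from a bacterial artificial chromosome that carries Chat, the acetylcholine synthesis gene, so the MN libraries stand for the cholinergic cells that drive it. WSC CLIP was made with human anti-NOVA serum from 4 wild type spinal cords. All CLIP mice were C57BL/6 and 3 months old. No group was knocked out for either NOVA gene.

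Potassium channels set how a cell returns to and holds its resting potential. Inward rectifiers and tandem pore channels pass potassium at rest, the first kind gated by G proteins, ATP or polyamines and the second by pH, lipids, stretch or volatile anesthetics. Calcium-activated channels open after calcium entry and shape the afterhyperpolarization that limits the firing rate of MNs. In the spinal cord, glial inward rectifiers also take up the potassium that active neurons release. NOVA binds clusters of short motifs, which in DNA letters are TCAT and CCAT, together with the versions that end in the other pyrimidine, TCAC and CCAC.

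RNA-seq had 72006019 (male) and 65625173 (female) reads on genes. CLIP had 56028 to 755358 unique reads on genes in the 8 MN libraries and 1989794 to 5543735 in the 4 WSC libraries. The exonic share of the reads within genes was 34.6% to 47.3% in MN and 60.9% to 66.1% in WSC libraries. MN and WSC CLIP thus differed in antibody, in NOVA protein, in pooling of mice, in depth and in exonic share, and these cannot be told apart from cell type. Of the marker genes tested in CLIP, 3 of 3 motoneuron markers were higher in MN (Chat by 3.17 on the log2 scale). All 4 inhibitory neuron markers and 4 of 4 tested astrocyte markers were lower (Slc6a5 by -4.25 and Gja1 by -1.25), and the oligodendrocyte marker Mbp (-0.09) did not pass the edgeR test. The inhibitory marker Slc32a1 had only 15 MN reads against 2545 in WSC, so the WSC libraries alone probably admitted it to the test. In WSC RNA-seq the motoneuron, neuron, astrocyte and oligodendrocyte markers were present, with 1 motoneuron marker, Isl1, below 1 RPKM (reads scaled to exon length in kb and to library size). Markers of dorsal root sensory neurons and of skeletal muscle were all below 1 RPKM.

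Of the 38 genes, 26 (68.4%) had a mean of at least 1 RPKM in WSC, against 62.1% of all genes. These 26 genes had a median level of 5.05 RPKM, against 10.3 RPKM over all genes past the same threshold. Kcnj10 alone made up 48.6% (male) and 55.9% (female) of the summed RPKM of the members. Since this is bulk tissue, fewer cells of a type and less RNA per cell cannot be told apart in any level given here. RPKM is a level per exon length, and the exon length is that of the authors' gene model.

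Among the inward rectifiers, the glial subunit Kcnj10 stood far above all others. Kcnj10, at chr1:174271341-174304216 in mm9 and the main potassium buffering channel of astrocytes and oligodendrocytes, was at 224 RPKM in the male and 300 RPKM in the female library (262 ± 53.9, SD, n = 2). Kcnj16, which joins Kcnj10 in the same channels, was at 25 and 28.5 RPKM, so Kcnj10 was 8.94 and 10.5 times as abundant as its partner. Aqp4, the water channel that lies beside Kcnj10 in astrocyte endfeet, was at 140 and 148 RPKM.

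The G protein-gated subunits, which hyperpolarize neurons after activation of inhibitory receptors, were led by Kcnj3. Its level was 19.4 RPKM in the male and 19.0 RPKM in the female library. Kcnj9 followed at 5.22 and 5.43 RPKM, and Kcnj6 at 1.78 and 1.22 RPKM. Kcnj5, the fourth subunit of this kind, had 30 and 18 reads, below 0.1 RPKM in both libraries. Kcnj3 was thus 10.9 and 15.6 times as abundant as Kcnj6. All 13 listed receptors and regulators of these channels were above 1 RPKM, led by the GABA-B receptor subunit Gabbr1 (137 and 114 RPKM) and by the G protein regulator partner Rgs7bp (43.3 and 50.8 RPKM).

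Kcnj11, the pore of neuronal ATP-sensitive channels, was at 11.1 RPKM in the male and 7.28 RPKM in the female library. Its vascular counterpart Kcnj8 was at 1.21 and 0.696 RPKM, with a mean of 0.954 RPKM just under the threshold. The sulfonylurea receptors that complete these channels showed the same order, with Abcc8 at 7.46 and 6.82 RPKM and Abcc9 at 1.49 and 1.59 RPKM. The strong inward rectifiers were low. Kcnj14 was at 3.77 and 5.67 RPKM, Kcnj12 at 4.00 and 4.28 RPKM, and Kcnj2 at 2.14 and 2.01 RPKM. Of the remaining Kcnj genes, Kcnj4, Kcnj13 and Kcnj15 had at most 25 reads in a library, and Kcnj1 had 0 reads in both.

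Tandem pore channels carry background leak currents, and 9 of the 13 genes were above 1 RPKM. Kcnk1, a weakly conducting subunit, was the highest at 51.1 RPKM in the male and 60.5 RPKM in the female library (55.8 ± 6.66, SD, n = 2). The acid-sensitive channels came next, with Kcnk9 at 24.1 and 20.7 RPKM and Kcnk3 at 10.5 and 11.3 RPKM. These genes are known for setting the resting potential of motoneurons. Kcnk13, a halothane-inhibited channel, was at 8.85 and 9.35 RPKM, and its relative Kcnk12 at 5.0 and 3.85 RPKM. Stretch- and lipid-sensitive channels were at intermediate levels: Kcnk2 at 8.67 and 6.61 RPKM, Kcnk4 at 5.84 and 3.72 RPKM, and Kcnk10 at 2.56 and 2.16 RPKM. Kcnk5, an alkali-activated channel, was near the threshold at 1.06 and 1.05 RPKM. Kcnk6 (149 and 171 reads), Kcnk7 (33 and 11) and Kcnk15 (0 and 16) were below 1 RPKM, and Kcnk18 had 0 reads in both libraries.

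Among the calcium-activated channels, Kcnma1, the pore of the large conductance channel, was at 8.65 RPKM in the male and 9.17 RPKM in the female library. Its neuronal beta subunit Kcnmb4 was at 2.92 and 3.82 RPKM, and Kcnmb2, the beta subunit that inactivates the channel, was at 1.48 and 2.23 RPKM. The smooth muscle subunit Kcnmb1 had 3 and 4 reads. Lrrc55 was the only one of 3 measured gamma subunit genes above 1 RPKM (6.11 and 6.38 RPKM).

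The small conductance channels, which carry the medium afterhyperpolarization, were within a narrow range of levels. Kcnn2 was at 6.44 and 7.39 RPKM, Kcnn1 at 4.70 and 4.31 RPKM, and Kcnn3 at 3.15 and 2.44 RPKM. Kcnn4, the intermediate conductance channel of blood and epithelial cells, had 64 and 19 reads. The sodium-activated channels differed from each other, with Kcnt1 at 12.8 and 10.3 RPKM and Kcnt2 at 3.08 and 2.42 RPKM, a ratio of 4.15 (male) and 4.25 (female).

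**Figure D1:**
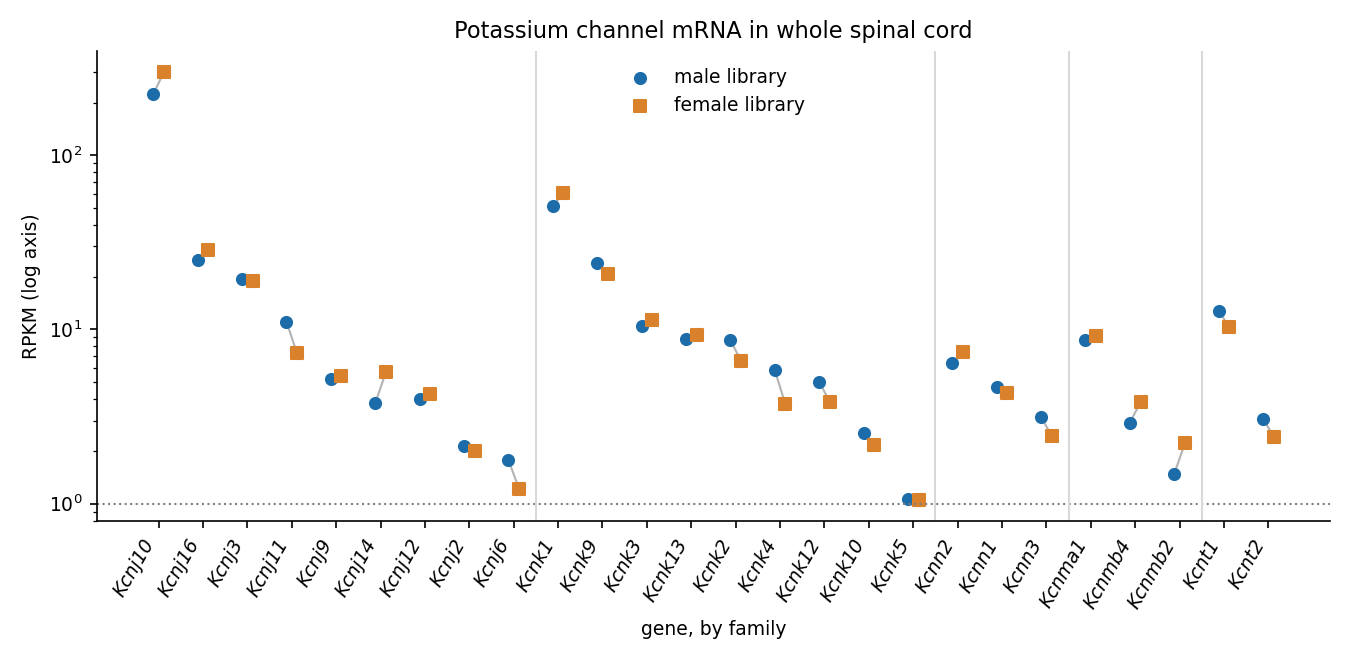
Level of each potassium channel gene with a mean of at least 1 RPKM, by family, with RPKM on a log axis, 1 point for each of the male and female libraries and a dotted line at 1 RPKM. Kcnj10 lies above every other member in both libraries, at 224 and 300 RPKM, and Kcnk1 is next at 51.1 and 60.5 RPKM.

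The 2 libraries gave nearly the same order of levels at its top. The ranges of Kcnj10, Kcnk1, Kcnj16, Kcnk9, Kcnj3 and Kcnt1 did not overlap with those of their neighbours in this order down to Kcnt1, whereas the lower range of Kcnt1 overlapped with that of Kcnk3. Of all 25 neighbouring pairs, 16 overlapped. With 1 library per sex there was no test, and sex, animal and library cannot be told apart. No member above 1 RPKM differed by more than 2-fold between the libraries (0 of 26), against 98 of 11940 genes (0.821%). Their log2 difference, female minus male on the log2(RPKM + 0.1) scale, ran from -0.63 (Kcnk4) to 0.58 (Kcnj14), with 14 genes lower and 12 higher in the female library. Of the 28 measured partner genes (receptors, regulators and accessory subunits), 26 were above 1 RPKM and 0 of these differed by more than 2-fold.

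Of the 21 cassette exons, 11 were covered by 10 or more junction reads per library and 6 had no junction read. The inclusion rate divides the mean of the upstream and downstream junction by its sum with the skipping junction. In 6 of the 11 covered exons the mean rate lay between 5% and 95%, so both forms were seen, whereas this held for 36.6% of the 9396 covered exons of all genes. In intervals, 95% Wilson limits cover counting error only.

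The 6 exons with both forms lay in Kcnk2, Kcnk4, Kcnma1, Kcnn1 and Kcnt1, and all were annotated coding exons flanked by AG and GT. In Kcnk2, the 118-nt exon at chr1:191119473-191119590 was included at 75.9% (63.1% to 85.4%) in the male and 74.3% (57.9% to 85.8%) in the female library. In Kcnk4, the 127-nt exon at chr19:7002772-7002898 was included at 67.6% (51.5% to 80.4%) and 70.7% (49.1% to 85.8%). In Kcnn1, the 111-nt exon at chr8:73372677-73372787 was included at 79.2% (59.5% to 90.8%) and 79.7% (63.7% to 89.8%). These 3 exons differed by less than their intervals. The inclusion junctions were uneven in the male library, with 38 and 12 reads in Kcnk4 and 10 and 28 in Kcnn1. The intervals do not cover this. With exon body reads counted as well, inclusion was 87.8% (male) and 89.8% (female) in Kcnk4 and 92.4% and 90.9% in Kcnn1.

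Kcnt1 had a pair of such exons. The 42-nt exon at chr2:25737716-25737757 was included at 63.3% (43.6% to 79.3%) in the male and 76.2% (54.9% to 89.4%) in the female library. The 63-nt exon at chr2:25768175-25768237 was included at 59.5% (51.0% to 67.6%) and 74.3% (64.4% to 82.2%). In Kcnma1, the 29-nt exon at chr14:24125947-24125975 was included at 62.3% (43.4% to 78.0%) and 36.0% (15.8% to 62.8%), from 43 and 17 junction reads. By Fisher's exact test on the authors' inclusion reads (exon body and junctions) and skipping reads of the 2 libraries, 0 of the 11 covered exons passed FDR ≤ 0.1, against 400 of 9396 exons (4.26%), and 1 had an unadjusted p under 0.05. That exon was the 63-nt exon of Kcnt1 (p = 0.0134, FDR = 0.200, Fisher's exact test, two-sided), while the 29-nt exon of Kcnma1 had p = 0.121 (exact). The test compares 2 libraries and not the sexes.

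The other 5 covered exons were almost always included or almost always skipped. Inclusion was 96.0% and 100% for the 217-nt exon of Kcnj3, 100% in both libraries for the 109-nt exon of Kcnt2, 100% and 98.1% for the 156-nt exon of Kcnma1, and 100% and 93.0% for its 81-nt exon. The 174-nt exon of Kcnma1 at chr14:24244789-24244962 was the only covered member exon that was mostly skipped. It is known as the stress axis-regulated exon, which changes the calcium sensitivity of the channel in endocrine cells. None of 36 junction reads included it in the male library, which allows a share of up to 8.33%, and the rate was 2.86% (0.506% to 14.5%) in the female library.

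The sequences of both mixed exons of Kcnt1 and of the mixed and the mostly skipped exon of Kcnma1 are given for the strand of the RNA, with 10 intronic bases on each side in lower case and the exon in capitals. They are shown because these are the genes with more than 1 exon that was not almost always included. The lengths of the Kcnma1 174-nt exon and of both Kcnt1 exons are multiples of 3, and that of the 29-nt exon is not.
Kcnma1, 174-nt exon: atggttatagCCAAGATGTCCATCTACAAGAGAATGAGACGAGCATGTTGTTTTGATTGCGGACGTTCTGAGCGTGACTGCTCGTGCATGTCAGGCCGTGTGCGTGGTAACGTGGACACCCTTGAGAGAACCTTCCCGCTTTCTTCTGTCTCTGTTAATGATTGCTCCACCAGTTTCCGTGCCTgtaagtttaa
Kcnma1, 29-nt exon: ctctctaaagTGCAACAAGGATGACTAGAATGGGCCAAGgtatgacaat
Kcnt1, 42-nt exon: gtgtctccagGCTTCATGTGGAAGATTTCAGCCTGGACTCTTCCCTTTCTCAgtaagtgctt
Kcnt1, 63-nt exon: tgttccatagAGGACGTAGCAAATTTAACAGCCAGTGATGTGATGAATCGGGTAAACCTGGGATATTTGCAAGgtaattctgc

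**Figure D2:**
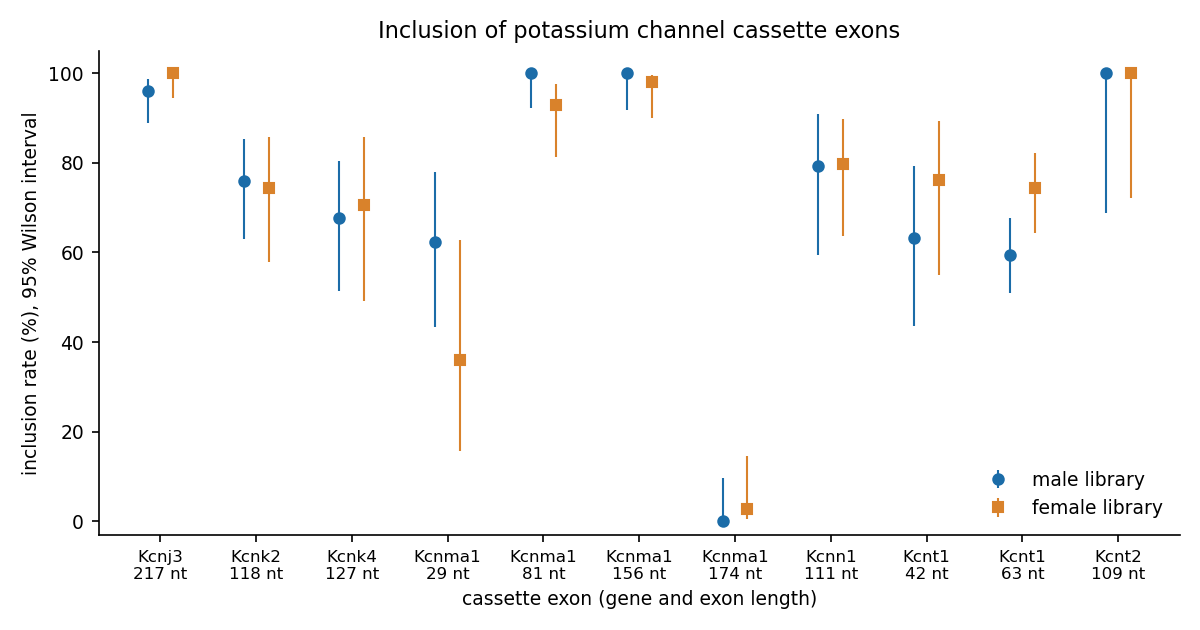
Inclusion rate (%) of the 11 covered cassette exons in the male and female libraries, with bars for the 95% Wilson interval of each library. The 174-nt exon of Kcnma1 lies near 0 (0% and 2.86%), 6 exons lie between 36.0% and 79.7% in every library, and the intervals of both libraries overlap for each exon.

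CLIP reads near these exons were few. Within 400 nt of the exon, counted by read midpoint, the 217-nt exon of Kcnj3 had the most reads, 6 in MN and 55 in WSC libraries. The 29-nt exon of Kcnma1 had 5 MN and 30 WSC reads, and 28 of the WSC reads lay upstream of it, in all 4 libraries. The 81-nt exon of Kcnma1 had 8 and 36 reads and the 174-nt exon 8 and 18 reads. The exons of Kcnk2, Kcnk4, Kcnn1 and Kcnt1 with both forms had at most 9 WSC reads and at most 1 MN read each, so binding beside them was not measurable at this depth.

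CLIP reads were counted for each gene over its annotated span and 10 kb downstream. The members took 0.454% to 0.505% of the reads on genes in the MN libraries and 0.364% to 0.387% in the WSC libraries, 8550 and 59502 reads in all. Kcnk9 alone held 2413 of these reads in MN and 8490 in WSC, and Kcnma1 held 2464 and 16359. The higher share in MN thus does not describe the members as a group. Of the 38 genes, 17 had enough reads to be tested, and 21 had not. Of these 21 genes, none had more than 33 MN or 255 WSC reads, 8 genes had no MN read, and 2 of them (Kcnj15 and Kcnk15) had no read in any library. Scaled to library size (RPM, with the scaling of the edgeR fit) and per kb of the region counted, Kcnk9 had a mean of 34 in MN and 12.5 in WSC. In WSC, Kcnj11 had 10.6, Kcnj10 had 3.64 and Kcnj3 had 3.24 per kb. These values depend on the added 10 kb, where most Kcnk9 reads lay, and whether those reads belong to Kcnk9 transcripts was not tested.

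By edgeR's quasi-likelihood test across 4891 genes (adjusted p ≤ 0.01), 6 members were higher and 7 lower in MN than in WSC. The shares of all tested genes were 28.2% higher and 28.8% lower, so most genes moved in this comparison. The filter on low counts was passed through the MN libraries alone by Kcnj12, Kcnk2 and Kcnn3, and through the WSC libraries alone by Kcnj11, Kcnk1, Kcnmb2 and Kcnt1. Of the 13 genes that passed the test, Kcnj11, Kcnj12, Kcnk1, Kcnmb2 and Kcnt1 were thus admitted by the group in which they were high, and for these 5 genes the adjusted p is given from the fit without the filter, in which the median of all genes was -0.248. The counts therefore do not describe the 38 genes as a whole. Adjusted p from the fits with and without the filter cannot be set side by side. For Kcnj6 it was 1.98e-10 with and 4.945e-30 without the filter, and for Kcnma1 7.06e-06 and 0.0279 (edgeR). The median log2 change of the tested members was 0.27, against -0.01 over all genes tested. In 4 members every MN library lay above every WSC library (13.1% of all genes tested), and in 6 every MN library lay below (16.0%). Of those 6, Kcnj11, Kcnk1 and Kcnmb2 were admitted by the WSC libraries alone, which favours such a lack of overlap. A change in CLIP reads can be a change in RNA level or in binding, and these were not separated.

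**Figure D3:**
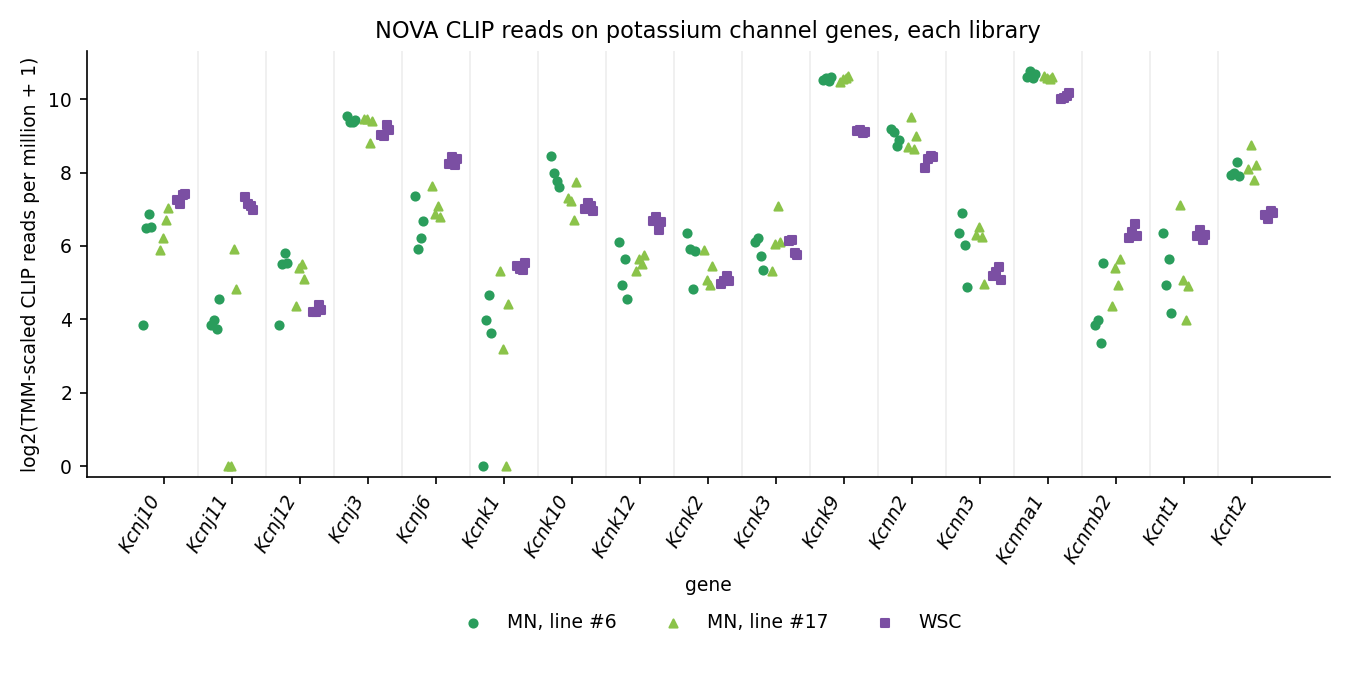
CLIP reads on each tested potassium channel gene, as log2 of scaled RPM plus 1, with 1 point for each of the 4 MN line #6, 4 MN line #17 and 4 WSC libraries. Kcnk9, Kcnt2, Kcnn2 and Kcnma1 lie higher in every MN library than in any WSC library, and Kcnj6, Kcnj10, Kcnj11, Kcnk1, Kcnk12 and Kcnmb2 lie lower. Of these, Kcnj11, Kcnk1 and Kcnmb2 passed the filter on low counts through the WSC libraries alone.

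Of the 5 tested inward rectifiers, 3 were lower and 1 higher in MN, against 28.8% and 28.2% of all genes tested. Among them, Kcnj11 was admitted by the WSC libraries alone and Kcnj12 by the MN libraries alone. Kcnj11, at chr7:53352533-53355607, was low in MN. Its level was 159, 139, 134 and 126 RPM in the WSC libraries and 0 to 59.5 RPM (median 14.1) in the MN libraries, of which 2 had no read, from 33 MN reads in all. The groups did not overlap, and the log2 change was -2.75 ± 0.24 (SE). Without the filter on low counts it was -2.92 ± 0.23 (adjusted p = 2.54e-35, edgeR). Kcnj11 has a single exon in this annotation, and its exonic reads alone gave -2.10 ± 0.26.

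Kcnj6, at chr16:94970873-95219303, was at 302, 344, 295 and 327 RPM in WSC and 59.0 to 196 RPM (median 112) in MN, again without overlap. Its log2 change was -1.58 ± 0.13 (adjusted p = 1.98e-10, edgeR), and -2.44 ± 0.13 from intronic reads alone. Kcnj3, the subunit that partners with Kcnj6, was at 516, 505, 630 and 575 RPM in WSC and 446 to 742 RPM (median 687) in MN. The groups overlapped through a single MN library, and the log2 change of 0.27 ± 0.10 did not pass (adjusted p = 0.0175, edgeR). Without that library, replicate 3 of line #17, the change was 0.32 and passed. From intronic reads alone Kcnj3 was lower, as Kcnj6 was, at -0.43 ± 0.10 (adjusted p = 4.81e-04, edgeR). From exonic reads alone Kcnj3 was at 0.32 ± 0.18, which did not pass (adjusted p = 0.132, edgeR). The difference between the changes of Kcnj3 and Kcnj6 was not tested. Of the listed receptors and regulators of these channels, 8 were tested, of which 4 were higher and 3 lower in MN (28.2% and 28.8% of all genes tested). Rgs7 (0.86 ± 0.10) and Rgs7bp (0.56 ± 0.13), which speed the closing of the channels, and the receptors Chrm2 (0.58 ± 0.11) and Adora1 (0.47 ± 0.11) were higher. The receptors Gabbr2 (-0.92 ± 0.12), Oprm1 (-1.95 ± 0.15) and Drd2 (-2.25 ± 0.25) were lower. Drd2 had only 23 MN reads against 1060 in WSC, so its admission by the WSC libraries alone is likely. Which group carried the other receptors and regulators past the filter was not examined.

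Kcnj10 was at 151, 140, 165 and 169 RPM in WSC and 13.5 to 130 RPM (median 89.8) in MN. Every MN library lay below, and the log2 change was -0.58 ± 0.16 (adjusted p = 0.0024, edgeR). Its reads were 90.6% exonic in MN and 81.5% in WSC, and exonic reads alone gave 0.31 ± 0.17, of the opposite sign, which did not pass (adjusted p = 0.112, edgeR). The astrocyte markers Gfap (-0.73), Aqp4 (-0.69), Slc1a2 (-1.13) and Gja1 (-1.25) were lower as well, and the MN libraries held 170 Kcnj10 reads. Kcnj12, a strong inward rectifier, lies at chr11:60836066-60884633. It was at 17.4, 17.3, 20.1 and 18 RPM in WSC and 13.5 to 55.0 RPM (median 42.6) in MN, with 1 MN library below the WSC range and 1 within it, and its log2 change was 1.11 ± 0.23 from 62 MN reads. Without the filter it was 0.92 ± 0.25 (adjusted p = 1.26e-03, edgeR), and Kcnj14, of 17 MN reads, was at 1.94 ± 0.47 (adjusted p = 3.09e-04, edgeR). With line #17 alone against WSC, neither Kcnj10 (-0.44) nor Kcnj12 (0.93) passed.

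Tandem pore channels moved in both directions, with 2 of the 6 tested genes higher and 2 lower (28.2% and 28.8% of all genes tested). Kcnk9, at chr15:72342549-72376709, was at 562, 574, 534 and 546 RPM in WSC and 1410 to 1577 RPM (median 1508) in MN. Its spread within each group was small, and its log2 change was 1.44 ± 0.09 (adjusted p = 4.16e-13, edgeR). Kcnk3, the other acid-sensitive channel, was at 69.6, 70.5, 54.9 and 52.5 RPM in WSC and 39.2 to 134 RPM (median 66.5) in MN, with a log2 change of 0.02 ± 0.18 (adjusted p = 0.95, edgeR).

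Kcnk10, at chr12:99672204-99816150, was at 127, 143, 136 and 122 RPM in WSC and 104 to 351 RPM (median 202) in MN, where 7 of 8 libraries lay above all WSC libraries. Its log2 change was 0.63 ± 0.13 (adjusted p = 1.51e-04, edgeR), and 0.49 with line #17 alone, which did not pass. Its stretch-sensitive relative Kcnk2 was at 30.4, 31.7, 35.5 and 31.8 RPM in WSC and 27.5 to 80.9 RPM (median 50) in MN, a log2 change of 0.41 ± 0.21 that did not pass (adjusted p = 0.0799, edgeR). Kcnk12 and Kcnk1 were lower in MN without overlap, though Kcnk1 was admitted by the WSC libraries alone. The highest MN library of Kcnk1 held 2 reads. Kcnk12, at chr17:88145177-88197334, was at 101, 110, 85.8 and 98.6 RPM in WSC and 22.7 to 67.4 RPM (median 46.7) in MN (log2 change -1.07 ± 0.17, adjusted p = 8.42e-06, edgeR). Kcnk1, at chr8:128519002-128554583, was at 43.1, 40.5, 39.7 and 45.6 RPM in WSC and 0 to 39.2 RPM (median 13.1) in MN (log2 change -1.24 ± 0.26), from 28 MN reads. Without the filter the change of Kcnk1 was -1.42 ± 0.28 (adjusted p = 3.75e-06, edgeR).

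Of the large conductance channel genes, Kcnma1 was higher in MN from all reads, and its beta subunits did not share a direction. Kcnma1, at chr14:24117983-24622526, was at 1028, 1052, 1085 and 1144 RPM in WSC and 1501 to 1756 RPM (median 1552) in MN. The groups did not overlap, and the log2 change was 0.55 ± 0.09 (adjusted p = 7.06e-06, edgeR). It was 0.31 without the filter on low counts and 0.27 from intronic reads alone, and passed in neither. Kcnmb2, at chr3:31801429-32099102, was at 73.6, 82.3, 96.6 and 75.8 RPM in WSC and 9.16 to 49.0 RPM (median 24.7) in MN, a log2 change of -1.27 ± 0.23 from 55 MN reads. Without the filter it was -1.45 ± 0.21 (adjusted p = 2.57e-10, edgeR). Kcnmb4 had 33 MN and 61 WSC reads and did not reach the filter, and without it was higher in MN by 2.17 ± 0.36 (adjusted p = 2.47e-08, edgeR). The gamma subunit gene Lrrc55 was lower in MN (-2.79 ± 0.32), from only 19 MN reads against 1308 in WSC. So few MN reads make its admission by the WSC libraries alone likely.

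Kcnn2, a small conductance channel, was at 276, 332, 351 and 339 RPM in WSC and 401 to 730 RPM (median 491) in MN. No MN library reached down to the WSC range, and the log2 change was 0.64 ± 0.11 (adjusted p = 1.6e-05, edgeR). Its reads were 96.2% intronic in MN and 91.5% in WSC, and intronic reads alone, scaled to all intronic reads, gave -0.16 ± 0.10, which did not pass (adjusted p = 0.195, edgeR). Kcnn3 was at 35.1, 38.3, 42.1 and 32.3 RPM in WSC and 28.4 to 118 RPM (median 76.3) in MN, and its change of 0.49 ± 0.24 did not pass (adjusted p = 0.0686, edgeR). It was 0.85 and passed without replicate 4 of line #17. Kcnn3 was admitted by the MN libraries alone, and without the filter its change was 0.31 ± 0.21 and did not pass (adjusted p = 0.301, edgeR). Kcnn1 had 9 MN and 156 WSC reads and was not tested.

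Of the sodium-activated channels, Kcnt2 was higher in MN and Kcnt1 was less certain. Kcnt2, at chr1:142142793-142508640, was at 114, 106, 123 and 119 RPM in WSC and 223 to 427 RPM (median 263) in MN. The groups lay far apart, and the log2 change was 1.34 ± 0.11 (adjusted p = 2.05e-10, edgeR). Kcnt1, at chr2:25719315-25773793, was at 75.9, 84.9, 70.8 and 77.9 RPM in WSC and 14.9 to 137 RPM (median 31.2) in MN. A single MN library, with 7 reads, lay above the WSC range and 6 lay below it, and the log2 change was -1.04 ± 0.22. Without the filter it was -1.21 ± 0.21 (adjusted p = 1.66e-07, edgeR), whereas with the filter and without replicate 4 of line #17 it was -0.81 and did not pass. Of the 16 partner genes with enough reads, 6 were higher and 7 lower in MN, against 28.2% and 28.8% of all genes tested. Which group carried partner or marker genes past the filter was not examined. For Lrrc55, Drd2 and the marker Slc32a1, few MN reads make the WSC libraries alone likely, so these counts do not describe all listed genes.

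The transgenic lines were compared with each other to see how far a founder line could set these values. Between line #17 and line #6, 0 of 4891 genes passed (0.0%) by edgeR, 239 had an unadjusted p under 0.05, and DESeq2 called 1 gene. The log2 difference, line #17 minus line #6, lay between -0.45 (Kcnn3) and 1.13 (Kcnmb2) for the tested members. Only Kcnmb2 fell under 0.05 before adjustment, and its adjusted p was 0.949 (edgeR).

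Where the reads lay within the genes also differed, as it did for most genes. Within the annotated span, the exonic share was lower in MN without overlap for 4 of 8 members with enough reads per library, against 58.5% of 3351 genes. For Kcnma1 it was 5.56% to 13.3% in MN and 24.1% to 27.5% in WSC, for Kcnk9 1.92% to 12.5% and 13.3% to 19.4%, for Kcnk10 0% to 3.08% and 6.40% to 12.1%, and for Kcnt2 0% to 14.3% and 16.7% to 18.8%. Kcnj10 went the other way, which 0.507% of all genes did. Its exonic share was 86.8% to 100% in the 3 MN libraries with enough reads and 77.7% to 85.8% in WSC. The shares of Kcnj3, Kcnj6 and Kcnn2 overlapped between MN and WSC. Among genes with fewer reads per library, the pooled reads of Kcnt1 were 27.1% exonic, 64.4% intronic and 8.47% downstream in MN, and 68.4%, 25.3% and 6.31% in WSC. The pooled reads of Kcnj12 were 3.23% exonic in MN and 21.4% in WSC.

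When intronic reads alone were counted and scaled, 11 members were tested, of which 2 were higher and 4 lower (12.7% and 14.5% of 2758 genes). Kcnk9 (1.18 ± 0.12) and Kcnt2 (0.66 ± 0.11) were higher, and Kcnj6, Kcnj10 (-2.32 ± 0.35), Kcnmb2 (-1.80 ± 0.21) and Kcnj3 (-0.43 ± 0.10) were lower. Only 9.41% of the 170 Kcnj10 reads in MN were intronic, so its value rests on few MN reads. Admission of Kcnj10 by the WSC libraries alone, in which it was high, is thus likely, and its lower call is a description only. Which group carried a gene past the filter was not examined for intronic or exonic reads alone, so these counts do not describe all members. The increases of Kcnma1 (0.27 ± 0.09, adjusted p = 0.0153, edgeR) and Kcnk10 (0.26 ± 0.13) did not pass on intronic reads, and Kcnn2 was at -0.16 ± 0.10. With exonic reads alone, 5 members were tested (23.8% of 2282 genes were higher and 24.4% lower). Kcnj11 was lower, with 90.9% of its 33 MN reads exonic. It was admitted by the WSC libraries alone with all reads, and so few MN reads make the same likely here. In contrast, Kcnj10 (0.31 ± 0.17) and Kcnma1 (-0.21 ± 0.14) had signs opposite to those from all reads and did not pass. The part of the lower exonic share of the MN libraries in the changes of Kcnma1, Kcnk10 and Kcnn2 was not tested.

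**Figure D4:**
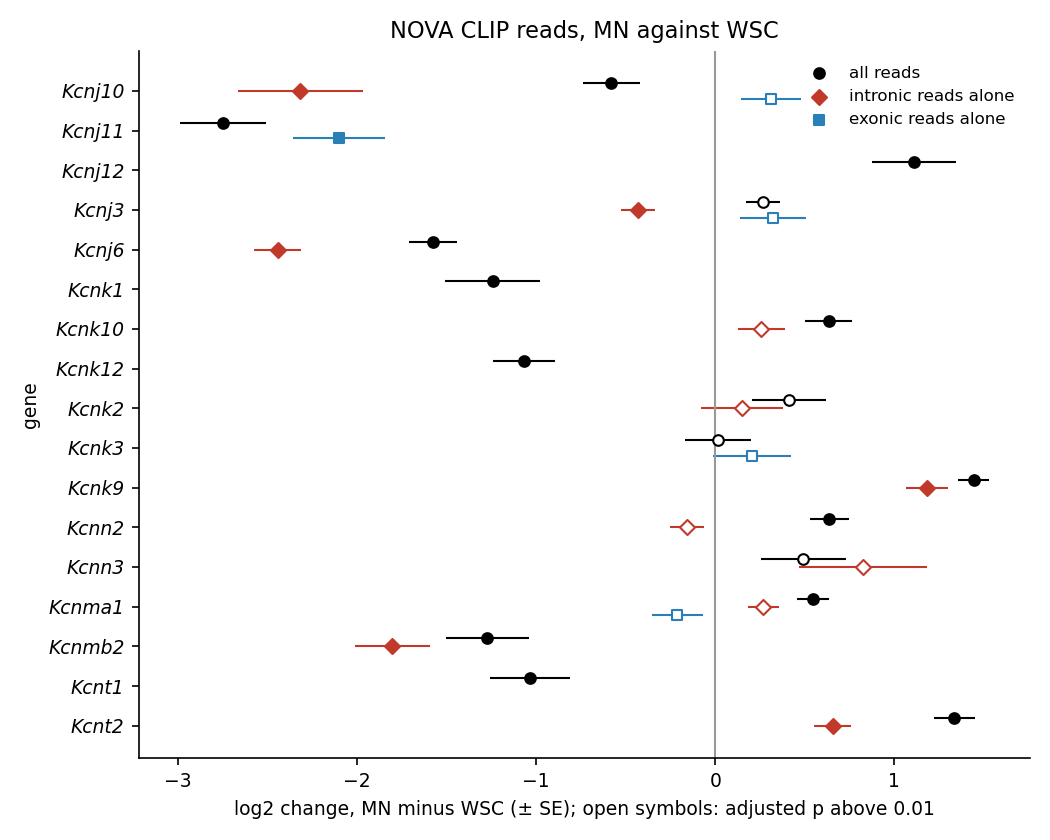
Log2 change in CLIP reads, MN minus WSC, of each tested potassium channel gene, with bars for the SE, from all reads (circles), intronic reads alone (diamonds) and exonic reads alone (squares). Filled symbols passed adjusted p ≤ 0.01 in fits with the filter on low counts. With all reads, Kcnj11, Kcnk1, Kcnmb2 and Kcnt1 passed that filter through the WSC libraries alone, and Kcnj12 through the MN libraries alone. For these genes the text gives the adjusted p from the fit without the filter. Kcnk9 and Kcnt2 lie to the right and Kcnj6 and Kcnmb2 to the left in both measures that they have, and Kcnj10 is at -0.58 from all reads, -2.32 from intronic and 0.31 from exonic reads. Only 9.41% of the 170 Kcnj10 reads in MN were intronic, so its admission to the intronic fit by the WSC libraries alone is likely.

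Many reads lay beyond annotated gene ends, and whether they belong to longer transcripts of the same genes was not tested. Downstream reads made up 76.3% of the Kcnk9 reads in MN and 82.0% in WSC, 39.9% and 51.7% of the Kcnma1 reads, and 46.9% and 72.9% of the Kcnn3 reads. The exon model with which the authors counted RNA-seq reads of Kcnk9 has 1209 nt. The 61-nt window around the highest Kcnk9 position was at nearly the same place in both groups, 3307 nt past the annotated end in MN and 3304 nt in WSC. It held 4.17% to 11.6% of the gene's reads in the MN libraries and 17.2% to 20.5% in the WSC libraries, so its share was lower in MN while the gene's total was higher.

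The highest windows of Kcnma1 were at different places. The MN window lay 2620 nt past the annotated end. It held 1.98% to 24.7% (median 5.34%) of the reads in MN and 3.32% to 4.23% (median 4.21%) in WSC libraries. The WSC window lay 5975 nt past the end and held 5.70% to 7.74% in WSC and 1.23% to 3.96% in MN libraries, without overlap. In Kcnj10, the highest WSC window lay in an untranslated exon and held a median of 9.17% of the reads in WSC and 0% in MN libraries, where it reached 10.5%. In Kcnk3, it lay in a coding exon and held 22.2% to 26.3% of the reads in WSC and 0% to 22.2% in MN libraries. For Kcnn2, an intronic window held 0% to 27.0% (median 4.46%) of the reads in MN and 0.277% to 1.25% (median 0.414%) in WSC libraries. When pooled, these were 57 of 792 and 23 of 5022 reads. These windows were chosen as the highest in a group, so their shares are a description.

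**Figure D5:**
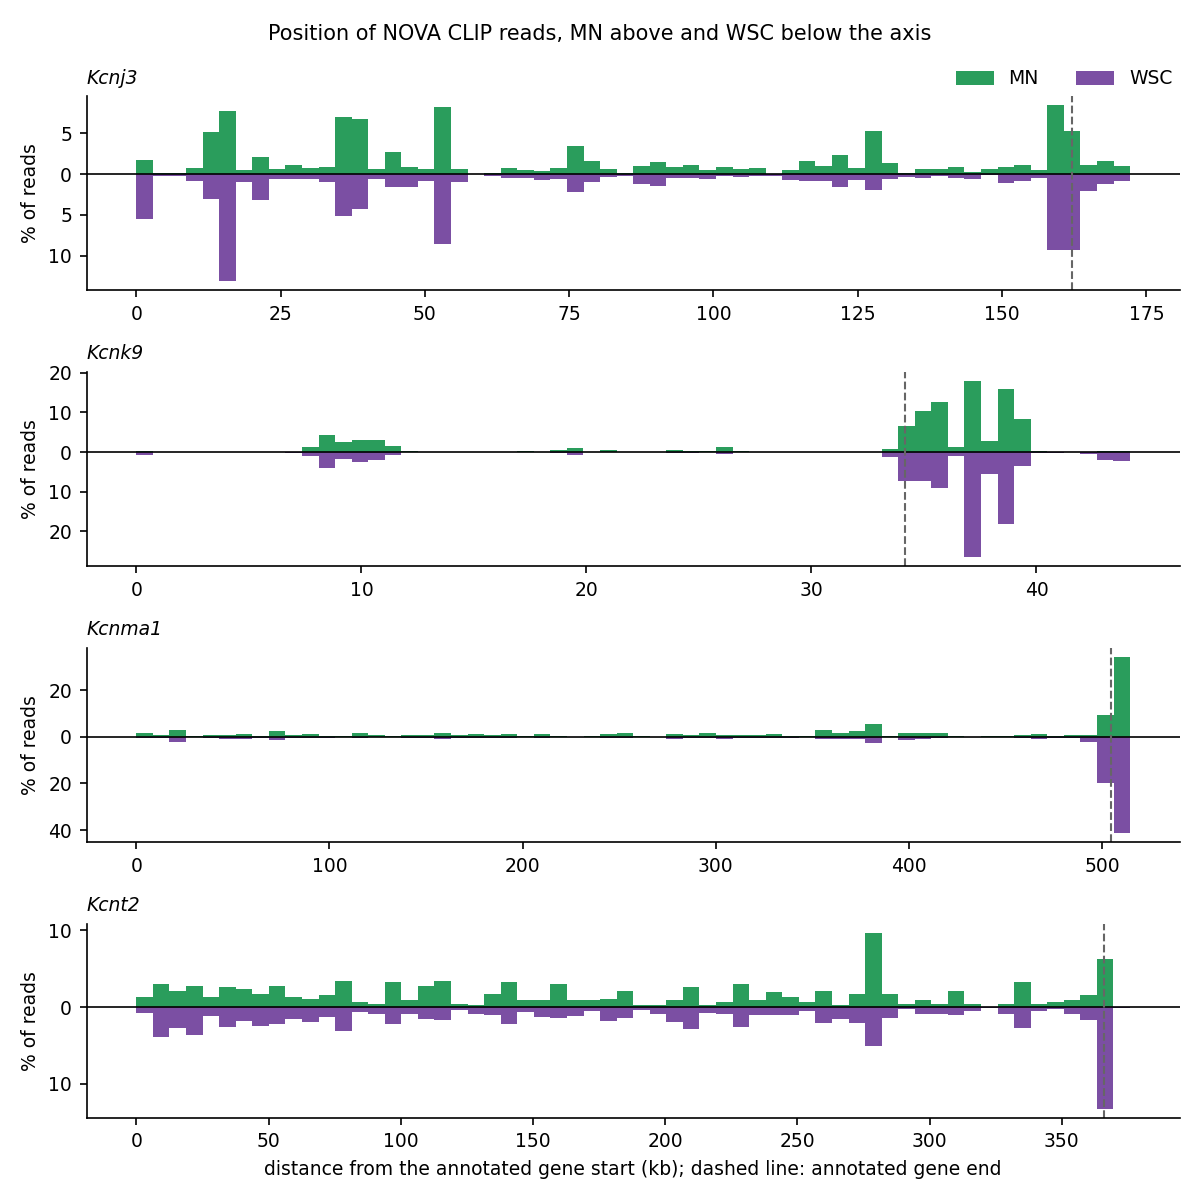
Share of the pooled CLIP reads of Kcnj3, Kcnk9, Kcnma1 and Kcnt2 in bins along the gene (% of reads, MN above and WSC below the axis) against the distance from the annotated gene start in kb, with a dashed line at the annotated gene end. Most Kcnk9 reads lie past the line in both groups (76.3% in MN and 82.0% in WSC), and the reads of Kcnt2 are spread along its introns (92.7% intronic in MN and 81.8% in WSC).

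The sequences at some of the highest windows are shown, for the letters under the densest reads. They are not a representative set, since motif-rich windows are shown more often than motif-poor ones, whose counts follow the sequences. They are from the mm9 genome, on the strand of the RNA, with the motifs in capitals (TCAT and CCAT, and likewise TCAC and CCAC). Windows in introns are shown in full (61 nt) and others by their central 30 nt. Motifs were counted on the RNA strand alone, and overlapping motifs were counted separately. The highest WSC window of Kcnj3 was a run of 8 motifs in the first part of its intron sequence. As many were held by 0.0709% of the 2822 windows of this length along Kcnj3, and 61.7% held at least 1. It had 742 WSC reads (8.71% of the gene's reads) and 35 MN reads (3.29%). The highest MN window of Kcnj3 had 6 motifs spaced by a single A (0.213% of windows held as many), with 66 MN reads (6.20%) and 612 WSC reads (7.19%).
Kcnj3, WSC window, chr2:55304950-55305010, plus strand: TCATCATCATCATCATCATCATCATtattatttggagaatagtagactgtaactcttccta
Kcnj3, MN window, chr2:55342701-55342761, plus strand: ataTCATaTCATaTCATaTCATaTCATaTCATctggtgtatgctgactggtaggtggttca
Kcnj6, MN window, chr16:94973529-94973589, minus strand: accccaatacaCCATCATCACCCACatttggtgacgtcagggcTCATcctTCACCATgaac
Kcnk3, WSC window, chr5:30924556-30924585, plus strand: ctgctTCATCACccTCACCACCATcggctt
Kcnk9, MN window, chr15:72339228-72339257, minus strand: ctCCATctttattTCATcaaggacagtaag
Kcnma1, MN window, chr14:24115349-24115378, minus strand: ttcTCATtTCATtCCATttgtctggttgtg
Kcnma1, WSC window, chr14:24111994-24112023, minus strand: actgcaacatttcaaacataaacccagatc

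The Kcnj6 window had 7 motifs (0.0708% of 4236 windows along the gene held as many) and was the highest in MN with only 7 reads, where WSC had 163 reads. In the full 61-nt windows, Kcnk9 had 3 motifs (17.0% of 723 windows held as many) and Kcnma1 had 5 (0.699% of 8435 windows). The Kcnk3 window had 5 motifs (1.94% of 772 windows held as many), with 7 MN and 227 WSC reads. The highest WSC window of Kcnma1 held 0 motifs, with 65 MN and 1059 WSC reads. Of the windows not shown, the WSC window of Kcnj6 (204 WSC reads) had 2 motifs (32.9% of windows along the gene held as many) and the MN window of Kcnk3 had 2 (31.5%). The windows of Kcnj10 had 1 in MN (61.0%) and 2 in WSC (26.4%), those of Kcnn2 had 1 (62.6%) and 3 (8.96%), and those of Kcnt2 had 2 (25.9%) and 3 (8.54%). The highest windows thus ranged from 0 to 8 motifs.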

How the data were processed

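The members, gene lists and tests were chosen with earlier results of these data known. The named members were all those of at least 1 RPKM, all past the CLIP threshold and all covered exons with a mean inclusion of 5% to 95%. For RNA-seq, the authors trimmed poly(A)-selected reads to 74 nt, mapped them to mm9 with OLego, kept reads with 1 position and counted them with Quantas, and deposited whole-number counts per gene and per exon feature and RPKM computed from the gene counts. For CLIP, the authors removed linkers, mapped with Novoalign to mm9, removed reads beside GTGTC-like pentamers and collapsed duplicates, and deposited 1 line per unique read (the score column was not used). Reads mapping to several places were not kept, so near-identical copies are undercounted.

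Unique CLIP reads were counted on 23653 GENCODE gene models (NCBIM37, the same build as mm9), on the same strand, over the gene span and 10 kb downstream. Genes of at least 36.5 CPM in 4 libraries (edgeR's filter) were tested with the quasi-likelihood test of edgeR 4.0.16 (R 4.3.3). It used TMM normalization and Benjamini-Hochberg adjustment over all genes tested. RPM (reads scaled to 1e6 reads on the genes tested) use the same factors. DESeq2 1.42.0 was an alternative. Wilson intervals have a level of 95%, and a count of 0 was taken to allow 3 counts. The scripts were tested on simulated data. Protein sequences were not used here, and some results on marker and partner genes and on 1 CLIP window are not reported here.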

Additional observations from a re-analysis of the deposited data

Results flagged for a closer look

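Libraries of a group of 4 were examined for a value far from the other 3, over 51 gene and group pairs, of which chance alone would give about 1 in 20 and 3 were found. Kcnj3 was at 446 RPM in replicate 3 of MN line #17, against 680 to 705 RPM in the others of that line, from 30 reads. Kcnmb2 was at 45.5 RPM in replicate 4 of MN line #6, against 9.16 to 14.8 RPM, from 8 reads. Kcnt1 was at 137 RPM in replicate 1 of MN line #17, against 14.9 to 32.8 RPM, from 7 reads.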

How the results depend on the processing

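Under other normalizations, tests and regroupings, most calls for potassium channel genes kept their direction and side of the threshold. The median level of the expressed members was 15.1 as TPM and 5.53 to 5.55 RPKM with either library alone, and 3 members differed by more than 2-fold between libraries without the filter on low values (Kcnn4, Kcnk7 and Kcnk15). In CLIP, exonic reads alone gave 543 genes higher and 556 lower (members 0 and 1), and intronic reads alone 350 and 399 (members 2 and 4), where fewer genes could be tested. Without the filter on low counts 2599 genes were lower, the median of all genes moved to -0.248 (-0.109 with library size alone), Kcnma1 was at 0.31 and did not pass, and Kcnj14 (1.94, 17 MN reads) and Kcnmb4 (2.17, 33 MN reads) passed. Signs reversed for Kcnj10 (0.31) and Kcnma1 (-0.21) with exonic reads, and for Kcnj3 (-0.43) and Kcnn2 (-0.16) with intronic reads. Kcnk3, which never passed, was at -0.03 with 3 groups in the fit, -0.01 with DESeq2, -0.30 over the gene span alone, -0.09 with library size alone, -0.24 with line #6 alone, -0.17 without the filter, -0.02 with RLE normalization, and between -0.08 and 0.10 with each library left out. Line #17 alone did not call Kcnj10 (-0.44), Kcnj12 (0.93) or Kcnk10 (0.49). Kcnn3 passed over the gene span alone (1.44) and without replicate 4 of line #17 (0.85), and Kcnj3 without replicate 3 of line #17 (0.32). These calls came from fits with the filter on low counts, and without it Kcnn3 was at 0.31 and did not pass. Between lines, DESeq2 called 1 gene. The number of members with a higher exonic share was 0 to 1 with each library left out. It was 0 only where 7 members rather than 8 had enough reads to be assessed. The cause of these changes was not tested. Replicate numbers were not taken to pair the CLIP libraries (correlations of -0.098 to 0.208 for the same number and -0.164 to 0.157 for others). Between the MN lines all 4 same-number pairs were positive (0.18, 0.059, 0.132 and 0.208), a hint from the data alone, since replicate 3 of line #6 correlated best with replicate 4 of line #17 (0.157). The fit with a replicate block gave 1085 genes higher and 1140 lower, with 6 and 7 members, the same calls as without it. MN depth limits all genes of few reads.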
